A study of Caenorhabditis elegans with 4 samples.

Results

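On 4 arrays of Caenorhabditis elegans early embryo RNA, 200 transcripts had high signal on replicate 1 and low signal on replicate 2, with replicates 3 and 4 between them. They were chosen by their measured values. Among the 10212 transcripts whose log2 signal averaged 10 or more over the 4 arrays, out of 23181 transcripts in all, those with replicate 1 above replicate 3, replicate 3 above replicate 4 and replicate 4 above replicate 2 were ranked by replicate 1 minus replicate 2. The 200 highest were kept, which is 1.96% of the transcripts that could have been chosen. They belong to 141 named genes, or 1.77% of the 7958 named genes at that level, while 5 of the transcripts matched no gene name. Since the values of every array entered the choice, the size and the order of the differences below describe the selection, and no test was made of them.

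All 4 samples form 1 group, labelled as the strain PFR40, which carries hpl-2(tm1489), a mutant allele of a heterochromatin protein 1 homolog, in hermaphrodites with a small share of males. Embryos were released by bleaching gravid adults from liquid culture and frozen, and the RNA was total RNA labelled with Cy3. Their growth protocol, however, gives the parents as N2, the standard wild-type strain. The labels do not say that the replicates came from separate cultures, so the spread between them may be technical, and they give no age beyond early embryo for any of the replicates. The wild-type arrays that the design text sets against these were not analysed here, so nothing below separates mutant from wild type. Replicates 1 to 4 had median signals between 576 and 591 and upper quartiles between 5748 and 5805. Precision is limited by the number of arrays, and the value of 1 transcript on 1 array has no error of its own.

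A C. elegans embryo first divides under control of RNA that the oocyte supplied, then sets cell fates with transcription factors of its own. Only later do its cells make the proteins of finished tissues. Body wall muscle then builds sarcomeres of myosin thick filaments and actin thin filaments, tied to the cell membrane at dense bodies and through the basement membrane and the epidermis to the outer surface. The epidermis makes hemidesmosomes, intermediate filaments and an apical extracellular matrix, and it secretes the collagen cuticle before hatching.

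Differences of this size were rare and ran mainly one way. The log2 difference of replicate 1 minus replicate 2 had a median of -0.06 over all 10212 transcripts, with 5th and 95th percentiles of -0.53 and 0.86. It was above 1, a fold of 2, in 407 transcripts (3.99%) and below -1 in 80 (0.783%). The 200 chosen transcripts lay between 1.52 and 4.16, with a median of 1.90, which is a median fold of 3.74 and a highest fold of 17.8. Their log2 SD over the 4 replicates had a median of 0.82, against 0.094 over all 10212. The order of the 4 replicates that the choice required held in 776 transcripts (7.6%), and in 365 of the 407 with a difference above 1. At or above the smallest chosen difference there were 203 transcripts, and 200 of them had that order. At or below the same size in the negative direction there were 13.

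**Figure D1:**
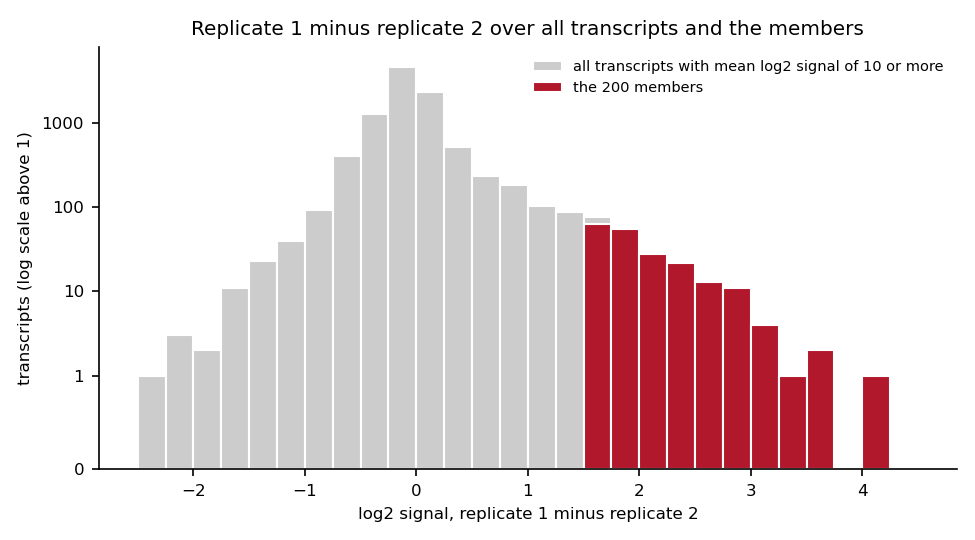
Number of transcripts (log scale above 1) by log2 signal of replicate 1 minus replicate 2, for all 10212 transcripts with mean log2 signal of 10 or more (grey) and the 200 chosen ones (red). The chosen transcripts fill the right tail from 1.52 to 4.16, and the left tail holds fewer transcripts at the same distance from 0.

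The transcripts with a difference as large but another order were 3. For cut-2, which encodes a cuticlin, the signals were 2149, 618, 2412 and 538 on replicates 1 to 4, so replicate 3 stood with replicate 1 and replicate 4 with replicate 2. The transcript H14N18.1c of unc-23 had 2902, 864, 1651 and 1711, with replicates 3 and 4 close together between the others. For Y50D4C.2 only replicate 1 was high, at 4229, while replicates 2, 3 and 4 had 785, 648 and 668. At the lower edge of the choice, the smallest differences were 1.52 for the transcripts ZK1151.1a of vab-10, C54E4.2b of test-1 and T01B6.1. The next transcripts outside were ZK1151.1e of vab-10, K12H4.1 of pros-1 and C43E11.6d of nab-1, also at 1.52, so the edge falls within a continuous range and divides the transcripts of single genes.

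The chosen transcripts were mostly of modest signal. Their mean log2 signal was between 10 and 11 for 103, between 11 and 12 for 72 and 12 or more for 25. The last class held 12.5% of them, against 68% of all 10212 transcripts. Their signals ran between 2002 and 19528 on replicate 1 and between 425 and 5269 on replicate 2. Signals of different probes are not comparable as amounts of RNA. These classes therefore describe measured signal only, and levels are not ranked between genes here.

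The 10 largest differences came from genes of several kinds. The gene lpr-4, which encodes a lipocalin-related protein, had signals of 7584 on replicate 1 and 425 on replicate 2, with 3410 on replicate 3 and 1018 on replicate 4, a log2 difference of 4.16. The gene far-1, which encodes a fatty acid and retinol binding protein, had 12567 on replicate 1 and 1053 on replicate 2, with 6769 and 1906 on replicates 3 and 4, a difference of 3.58. For the transcript K04H4.2a of chtb-1, named for a chitin-binding domain, they were 14168 and 1197, with 6998 and 2629 on replicates 3 and 4, a difference of 3.57. In these 3 genes replicate 3 lay nearer to replicate 1 on the log2 scale and replicate 4 nearer to replicate 2. The next were T03G6.1 at 3.37, lpr-5 at 3.24, F44E2.4 at 3.11, the transcript K04H4.2c of chtb-1 at 3.10, the unconventional myosin hum-6 at 3.04, the calponin-like gene clik-1 at 2.96 and the sodium-calcium exchanger ncx-2 at 2.95.

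Muscle filament genes had the highest median among the functional groups of more than 2 genes. Sorted by function, a sorting made after the members were known, 23 of the 200 transcripts from 17 genes encode filament proteins of muscle and their regulators, with a median difference of 2.46 and a median fold of 5.49. A further 14 transcripts from 6 genes belong to muscle attachment and calcium handling, with a median of 2.41. In 3 lists of muscle structure, for thick filaments, thin filaments and dense bodies, 41 genes had a mean log2 signal of 10 or more. Of these, 19 had a chosen transcript, beside the 1.77% of all named genes, and the 19 include the unconventional myosin hum-6. These lists too were written with earlier results of these data known, so their shares are descriptions only. Whole embryos were measured, so more muscle cells and more of these RNAs per muscle cell cannot be told apart.

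In the thick filament list, 9 of 12 genes had a chosen transcript, and the median difference over the 12 was 2.14, against -0.08 over all 7958 named genes. A gene enters these medians through its transcript of highest signal. The list's genes with a difference above 1 were 11 of 12, beside 3.54% of all named genes. The paramyosin gene unc-15, for the core of the thick filament, had signals of 6047 on replicate 1 and 819 on replicate 2, with 2555 and 1377 on replicates 3 and 4, a difference of 2.89. The body wall myosin heavy chain myo-3 had 4319 on replicate 1 and 735 on replicate 2, with 1905 and 1213 on replicates 3 and 4, a difference of 2.55. The other body wall heavy chain, unc-54, had 8084 on replicate 1 and 1549 on replicate 2, with 3938 and 2245 on replicates 3 and 4, a difference of 2.38. The order of the 4 arrays in these genes was fixed by the choice. The myosin light chains followed, with differences of 2.55 for the transcript F09F7.2b of mlc-3, 1.93 for mlc-2 and 1.78 for mlc-1, of which mlc-1 and mlc-2 are near-identical neighbours whose probes may not separate them. The giant kinase ttn-1, a relative of titin, reached 2.39 in 1 of its 7 transcripts, and unc-82, which encodes a kinase needed for thick filament order, 1.54. The list also holds hum-6, at 3.04, an unconventional myosin that is not a filament protein, and its relative hum-4 was chosen too, at 2.21.

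The list's 3 genes with no chosen transcript were regulators and linkers. The M-line genes unc-96 and unc-98, whose products link thick filaments to the membrane, differed by 1.46 and 1.13. The myosin chaperone unc-45 differed by 0.09, with 3470 on replicate 1, 3253 on replicate 2, 2989 on replicate 3 and 3194 on replicate 4.

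In the thin filament list, 7 of 13 genes had a chosen transcript, 6 differed by more than 1 and the median was 0.22. The seventh chosen gene, unc-60, enters the median through a transcript that was not chosen, at 0.01. The troponin T genes tnt-3 and mup-2, which hold the troponin complex on the filament, differed by 2.77 and 2.52. The signals of tnt-3 were 3939 on replicate 1 and 579 on replicate 2, with 1622 and 925 on replicates 3 and 4. Tropomyosin, encoded by lev-11, differed by 2.63 in its transcripts Y105E8B.1b and Y105E8B.1f. The calponin-related cpn-3 differed by 2.46, the troponin C gene pat-10 by 2.31 and the troponin I gene tni-1 by 2.2. The list's 4 genes with a mean below 10, which could not be chosen, had a median of 0.87, and 1 of them differed by more than 1.

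The actins were not chosen. The 4 actin genes of the list, act-1 to act-4, differed by between -0.02 and 0.06, and act-1 had 49725 on replicate 1, 50520 on replicate 2, 49316 on replicate 3 and 49389 on replicate 4. Their sequences are near-identical and other embryonic cells use actin, so these probes do not measure muscle actin alone. The filament-turnover genes unc-78 and unc-94 differed by 0.22 and 0.01.

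**Figure D2:**
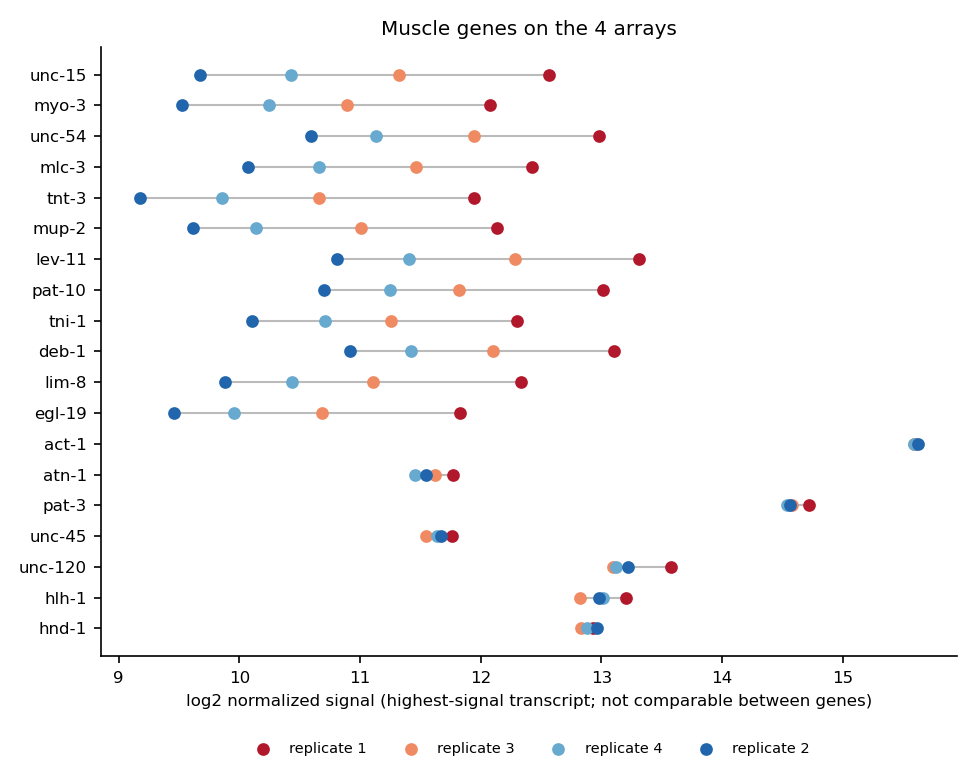
Log2 normalized signal of 19 muscle genes on replicates 1 (dark red), 3 (orange), 4 (light blue) and 2 (dark blue), each gene by its transcript of highest signal. The 12 upper genes, unc-15 to egl-19, run from replicate 2 on the left to replicate 1 on the right in 1 order, while act-1, atn-1, pat-3, unc-45, unc-120, hlh-1 and hnd-1 have all 4 arrays close together.

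At the dense body and muscle attachments, 3 of 16 listed genes had a chosen transcript, with a median of 0.55 over the 16. The LIM domain gene lim-8 differed by 2.45, the vinculin gene deb-1 by 2.19 and unc-23, a BAG domain protein that keeps muscle attached, by 1.77. The transcripts ZC477.9a and ZC477.9c of deb-1 had 8797 and 7767 on replicate 1 and 1930 and 2046 on replicate 2. In the 2 chosen transcripts of unc-23, replicate 4 lay 51.3% and 50.0% of the way from replicate 2 to replicate 1 on the log2 scale, the highest such positions of replicate 4 among the 200. The integrin beta subunit pat-3 differed by 0.16 and alpha-actinin, atn-1, by 0.22, while the integrin alpha subunit pat-2 differed by 1.15. Of 9 genes of muscle excitation and calcium, 1 had chosen transcripts, the L-type calcium channel egl-19, with 3631 on replicate 1, 703 on replicate 2, 1647 on replicate 3 and 990 on replicate 4 for C48A7.1b. The potassium channel slo-1 differed by 1.49 and the calcium pump sca-1 by 0.02. The 4 transcripts of ncx-2 differed by between 2.81 and 2.95.

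None of the 7 listed regulators of muscle fate was chosen, and their median difference was 0.15. The MyoD homolog hlh-1 had 9449 on replicate 1, 8086 on replicate 2, 7238 on replicate 3 and 8260 on replicate 4, a difference of 0.22. For unc-120, a serum response factor relative that acts beside it, the difference was 0.36, for hnd-1 -0.04 and for ceh-51, which acts early in the mesoderm, -0.44. The highest of the 7 was ceh-34 at 0.80. None of the 7 had the order of replicates that the choice required, which 496 of all 7958 named genes had. With 7 genes that count cannot be read as a trait of these regulators.

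Genes of the apical matrix and cuticle held the largest single value, that of lpr-4, and also values near the edge. By function, 19 transcripts from 15 genes belong here, with a median of 2.2. The neighbours lpr-4, lpr-5 and lpr-6 on chromosome X differed by 4.16, 3.24 and 2.54, and lpr-6 had 5633 on replicate 1, 971 on replicate 2, 2608 on replicate 3 and 1399 on replicate 4. Of 7 furrow and body-shape collagens with a mean of 10 or more, 3 were chosen, the cuticle collagens dpy-3 at 2.47, dpy-2 at 1.96 and the transcript T14B4.7b of dpy-10 at 1.56. All 7 had the required order of replicates, which the choice fixed for the chosen transcripts and which 496 of all 7958 named genes had. The other transcript of dpy-10, T14B4.7a, was not chosen and differed by 1.13, with 17661 on replicate 1 and 8071 on replicate 2. The genes dpy-7, sqt-3, dpy-14 and dpy-17 had 1.48, 1.23, 0.91 and 0.62. The 10 measured genes of the larger col family with a mean of 10 or more had a median of 0.01, and 2 differed by more than 1. Of these 10, col-121, at 1.97, was chosen, or 10% beside the 1.77% of all named genes.

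Among patched-related genes, which encode membrane proteins with a sterol-sensing domain, 3 of 10 were chosen. They were ptr-4 at 2.94, ptr-25 at 2.42 and ptr-1 at 1.62, and ptr-4 had 8036 on replicate 1 and 1048 on replicate 2, with 3672 and 1777 on replicates 3 and 4. The transcripts of acn-1, which encodes an angiotensin-converting enzyme relative of the epidermis without the enzyme's active site, differed by 2.2 and 2.02. From the list of embryonic apical matrix genes, 2 of 12 were chosen, lpr-5 and, at 1.68, the zona pellucida domain gene dyf-7, which anchors the dendrites of sensory neurons. The cuticlin-like cutl-28 and cutl-24 differed by 1.83 and 1.54. None of 10 cuticle enzymes was chosen, with a median of 0.23, and the thioredoxin-like dpy-11 differed by 0.08.

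Structural genes of epithelia were represented by 20 transcripts from 12 genes and a median of 1.75. All 3 intermediate filament genes with a mean of 10 or more were chosen. The intestinal ifb-2 differed by 2.24, with 5213 on replicate 1, 1103 on replicate 2, 2214 on replicate 3 and 1511 on replicate 4, and the epidermal ifa-3 and ifb-1 by 2.15 and 1.68. With them stood ifo-1, at 1.64, which organizes the filaments of the intestine. In the list of epithelial junctions and attachment, 5 of 25 genes were chosen, and all 25 differed by more than 0, with a median of 0.29. Without replicate 2, ranked by replicate 1 minus replicate 4, 1 of them was chosen. The hemidesmosome receptors mua-3 and mup-4 differed by 1.78 and 1.75, the apical junction gene ajm-1 by 1.99, the myotactin gene let-805 by 1.62 and the spectraplakin vab-10 by up to 1.56. The lowest of the list were the beta-spectrin unc-70 and eat-20, both at 0.06. The claudin-like clc-6 differed by 2.36, the cadherin cdh-9 by 2.24 and the innexin inx-15, a gap junction protein, by 1.83. In their families, 1 of 5 cadherins was chosen, with a median of 1.11, and 1 of 13 innexins, with a median of 0.04.

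The epidermal transcription factors had no chosen member. The 7 with a mean of 10 or more had a median of 0.25, and lin-26, which keeps epidermal fate, had 22007 on replicate 1, 20198 on replicate 2, 20936 on replicate 3 and 20964 on replicate 4. The fate gene elt-1 differed by 0.10, the nuclear receptor nhr-25 by 0.25 and the later-acting elt-3 by 0.83. A list of 7 genes is too small for a count of 0 to be read against the 1.77% of all named genes, here as for the regulators of muscle fate.

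In the basement membrane list, 3 of 15 genes were chosen and the median was 0.86. Perlecan, unc-52, which lies under body wall muscle, differed by 2.06, with 7545 on replicate 1, 1815 on replicate 2, 3722 on replicate 3 and 2586 on replicate 4 for ZC101.2f. The type IV collagen chain emb-9 differed by 1.57, and its partner chain let-2, not chosen, by 1.39. The testican gene test-1 differed by 1.52. The laminin chains stood apart, with lam-2 at -0.06, epi-1 at 0.04 and lam-1 at 0.24.

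Transcriptional regulators made up 14 transcripts from 12 genes, with a median of 1.86. In the families of regulators listed whole, counts were small and cannot be read as shares above or below that of all named genes. Of 78 nuclear hormone receptors 1 was chosen, or 1.28% beside 1.77% of all named genes, with a median of 0.04. Of 36 homeobox ceh genes 1 was chosen, or 2.78%, with a median of 0.05. Of 8 basic helix-loop-helix genes 1 was chosen, or 12.5%, with a median of 0.18. The zinc finger gene ztf-30 differed by 2.59, the bZIP factor atf-2 by 1.97 and the nuclear hormone receptor nhr-43 by 1.84. For peb-1, a DNA-binding protein of the pharynx, the transcript T14F9.4a differed by 2.15, and its other transcript, with a mean below 10, by -0.18. The hunchback relative hbl-1 differed by 2.00 and the period relative lin-42 by 1.87 in its transcript F47F6.1b. A lin-42 transcript with a mean below 10 differed by 0.06. The transcript F13D11.2b of hbl-1 had 19528 on replicate 1 and 4894 on replicate 2, with 10466 and 7677 on replicates 3 and 4. The beta-catenin bar-1 differed by 1.65, and the pharyngeal muscle factor ceh-22 by 1.55 in its transcript F29F11.5b.

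Of 26 neuronal fate factors, 3 were chosen, and 1 without replicate 2. The homeodomain factor unc-42 differed by 1.68, the zinc finger factor egl-46 by 1.57 and the POU factor unc-86 by 1.54, and unc-86 had 6900 on replicate 1, 2370 on replicate 2, 3325 on replicate 3 and 3016 on replicate 4. Every one of the 26 differed by more than 0, with a median of 0.59, and zag-1, lin-11 and unc-3 came close to the edge at 1.44, 1.41 and 1.41. The proneural hlh-3, which acts early in neurogenesis, differed by 0.00 and ceh-36 by 0.07. Genes of axons, synapses and adhesion gave 16 transcripts from 8 genes, with the lowest median of the functional groups, 1.63. They included the presynaptic kinase sad-1 at 1.97, eva-1, a receptor for the guidance cue SLT-1, at 1.88, the transcript B0350.2f of the ankyrin unc-44 at 1.77, unc-53 at 1.75, the contactin rig-6 at 1.70, the immunoglobulin protein zig-1 at 1.61, the neurabin nab-1 at 1.58 and the Flamingo cadherin fmi-1 at 1.57. In the list of axon guidance and adhesion 3 of 28 genes were chosen, and 1 without replicate 2, with unc-33 at -0.48 and unc-76 at -0.05 as the lowest. None of 14 synaptic and pan-neuronal genes was chosen, and their median was -0.01. A list of 14 genes is too small for a count of 0 to be read against the 1.77% of all named genes. In the same list, 10 genes with a mean below 10, which could not be chosen, had a median of 0.39.

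Lipid and amino acid metabolism gave 12 transcripts from 8 genes, with a median of 1.80 and far-1 well above the rest. This group was sorted after the members were known. In the list of lipid desaturation and transport, 1 of 14 genes was chosen, far-1, and the median was 0.15, with a lowest value of -1.09. None of 4 lipid-binding proteins was chosen, with a median of -0.12. After far-1 came the acyl-CoA binding acbp-3 at 2.00, the short-chain dehydrogenase dhs-16 at 1.99, the fatty acyl-CoA synthetase acs-1 at 1.90, the lipid-binding polyprotein npa-1 at 1.81, the histidine ammonia lyase haly-1 at 1.80, the carnitine acyltransferase cpt-4 at 1.80 and heh-1, a relative of the cholesterol-binding NPC2, at 1.77. Counting each of the 5 transcripts without a matching gene name as a gene, 63 genes with 74 transcripts had no function assigned here. Their median was 1.87. Among them pqn-73, a gene of the list of abu and pqn genes, differed by 2.88, dsl-6, a relative of Notch ligands, by 2.08, the aquaglyceroporin aqp-7 by 1.61 and the C-type lectin clec-78 by 1.58. Of 20 abu and pqn genes 1 was chosen, with a median of -0.03, and of 12 C-type lectins 1, with a median of -0.08. Of the 141 genes, 39 have a sequence name only.

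**Figure D3:**
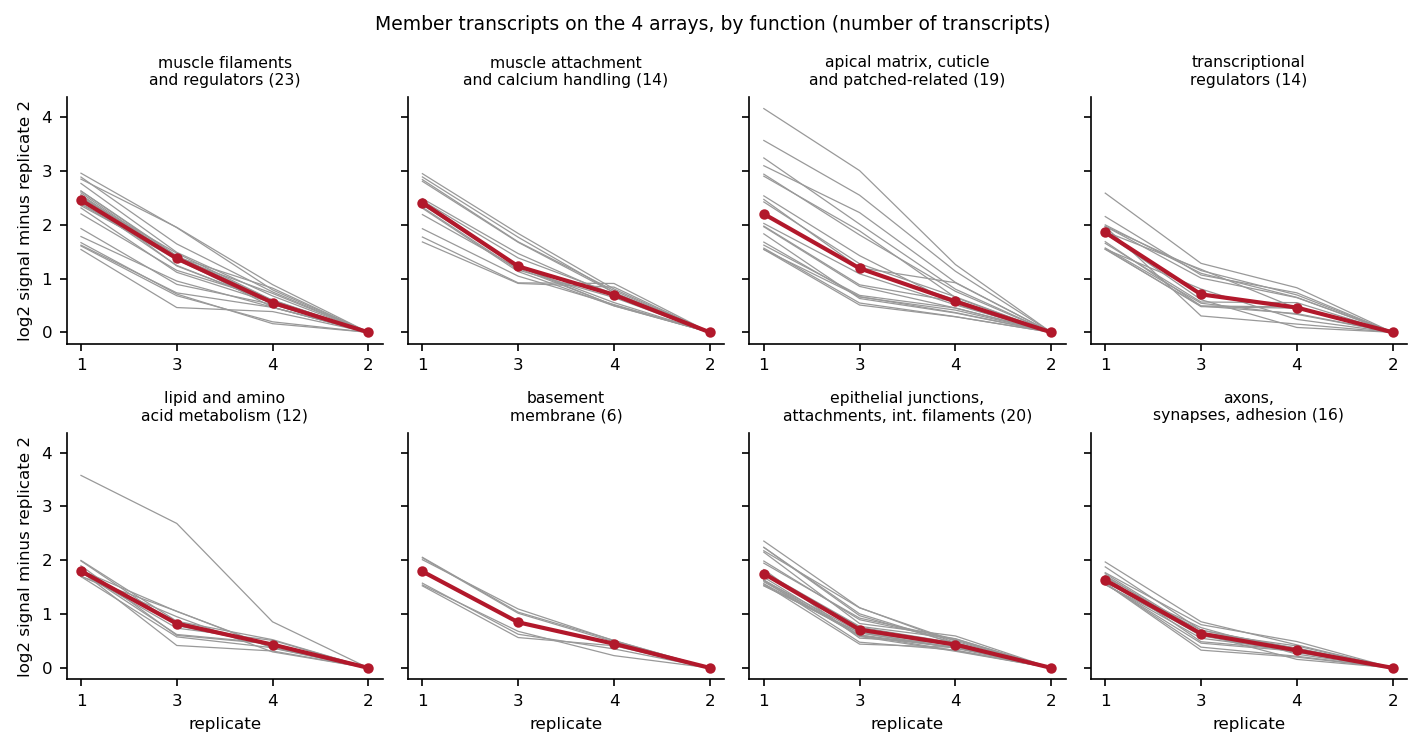
Log2 signal minus that of replicate 2 for the chosen transcripts of 8 functional groups, with replicates in the order 1, 3, 4, 2 used to choose them. Grey lines are transcripts and the red line is the group's median, which at replicate 1 lies between 1.63 for axons and 2.46 for muscle filaments.

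Replicates 3 and 4 kept their order by the choice, but their distances from the others were free to vary. With replicate 2 set at 0% and replicate 1 at 100% on the log2 scale, replicate 3 had a median position of 45.5% over the 200 transcripts and replicate 4 one of 23.2%. Replicate 3 was nearest to replicate 1 for far-1, at 75%, lpr-4, at 72.3%, and the transcripts K04H4.2c and K04H4.2a of chtb-1, at 71.9% and 71.5%. It was nearest to replicate 2 for hlh-11, at 15.5%, fmi-1, at 21%, and cpt-4, at 23.2%. The muscle filament group had a median of 53.5%, muscle attachment and calcium handling 54.3% and the apical matrix group 52.6%. Transcriptional regulators had 42%, epithelial junctions 42.7% and axons and synapses 37.5%. Replicate 3 thus stood relatively closer to replicate 1 in the muscle and matrix groups than in the neuronal one. That is a description of these 4 arrays, in groups sorted after the members were known. The muscle and matrix groups also had larger median differences, with 2.46 for muscle filaments against 1.63 for axons and synapses. Whether the positions differ by tissue apart from the size of the difference was not tested.

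Of 62 gene lists, 25 held a gene with a chosen transcript, and lists of earlier and of maternal functions held none, which in lists of this size is close to the 1.77% of all named genes. The 21 early zygotic genes, which switch on in the first embryonic divisions, had a median difference of -0.25, with end-1, an endoderm fate gene, at -0.49 and cwn-1 at 0.12. The 23 maternal cell fate genes had a median of -0.11 and the 32 genes of mitosis and replication -0.04. The 25 genes of heterochromatin and its repressors, the pathway of hpl-2, had a median of -0.04 and ran between -0.19 and 0.06. Eggshell and oocyte genes had a median of -0.43, meiotic chromosome genes -0.40 and major sperm protein genes -1.04, so the median gene of each was lower on replicate 1 than on replicate 2.

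**Figure D4:**
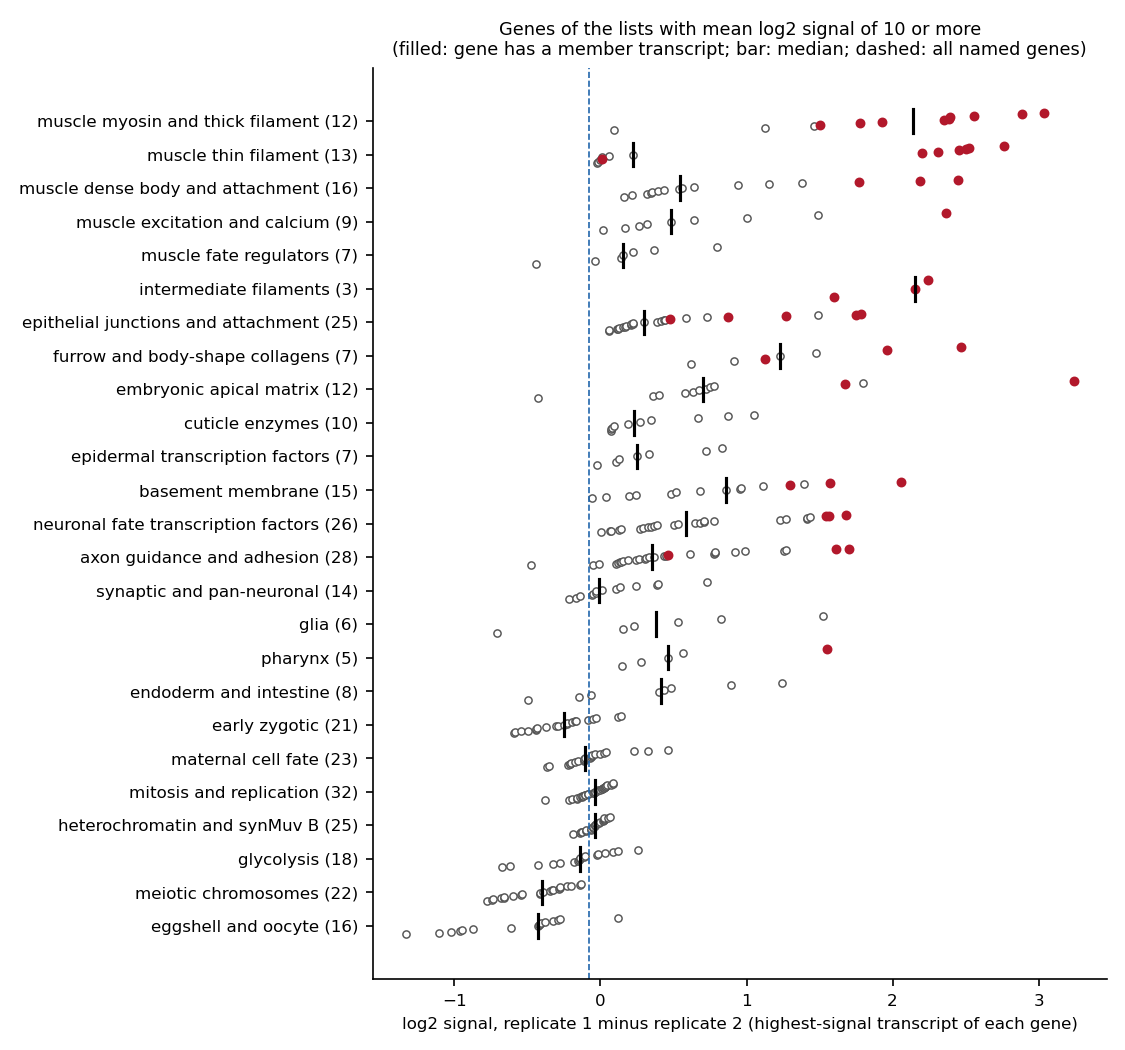
Log2 signal of replicate 1 minus replicate 2 for the genes of 25 lists with a mean log2 signal of 10 or more, their number in brackets. Filled points are genes with a chosen transcript, shown by the gene's transcript of highest signal, which can be another one. Bars are medians, from 2.15 for intermediate filaments and 2.14 for thick filaments to -0.43 for eggshell and oocyte, and the dashed line is the median of all named genes, -0.08.

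These values move with the replicates, and so do markers of oocytes. The chitin synthase of the eggshell, chs-1, had 1213 on replicate 1, 3052 on replicate 2, 3078 on replicate 3 and 4221 on replicate 4, and the yolk receptor rme-2 had 5724, 11638, 11702 and 14433 on the same arrays. For both genes replicate 1 was low and replicates 2 and 3 were level, so the 3 other arrays did not take the places they had for the chosen transcripts. The oocyte markers checked were 3, with him-3 at -0.66, and all were lower on replicate 1 than on replicate 2. Of the vitellogenins, markers of the adult intestine, vit-2 and vit-6 were near the bottom of the signal range on every array, between 187 and 257. The early embryo markers pie-1, pes-10, tbx-37 and end-1 had differences of -0.07, -0.17, -0.37 and -0.49. The age of the embryos and the amount of oocytes in each sample are not among the labels, and their part in the differences was not tested.

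Lists of other tissues held few chosen genes. They had 5 to 8 genes with a mean of 10 or more, too few for such counts to be read against the 1.77% of all named genes. Among 8 endoderm and intestine genes with a mean of 10 or more, none was chosen and the median was 0.42. Of the 8, 5 differed by more than 0 and 1 by more than 1, with a lowest value of -0.49 and a highest of 1.25. The chosen ifb-2 and ifo-1, of the filaments of the intestine, are counted with the epithelial genes above. The intestinal GATA factor elt-2 differed by 0.40 and the intestinal actin act-5 by 0.89, while the intestinal marker elt-7 differed by -0.14. In the pharynx list 1 of 5 genes was chosen, ceh-22, and the organ regulator pha-4 differed by 0.46. The pharyngeal myosin myo-2 had 239 on replicate 1, 259 on replicate 2, 279 on replicate 3 and 226 on replicate 4, near the bottom of the range on each. Of 6 glial genes none was chosen, though pros-1, at 1.52, was among the 3 just outside.

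The transcripts of single genes often differed from each other. Of the 141 genes, 88 have 1 measured transcript, and 53 have several, of which 26 had all chosen and 27 only some. The 59 transcripts left out included 30 with a mean of 10 or more, with a median difference of 1.00, and 29 below that mean, with a median of 1.17. Of those 59, 6 differed by less than 0. Isoforms share exons, so the values of 1 gene's transcripts are not independent, and which exons the probes cover is not given in the sources used here.

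The greatest spans were in ceh-22, cpna-2 and hlh-11. The transcripts F29F11.5b and F29F11.5c of ceh-22 differed by 1.55 and 1.47. Its F29F11.5a, whose mean was below 10, had 460 on replicate 1, 4009 on replicate 2, 285 on replicate 3 and 289 on replicate 4, a difference of -3.12 that rests on replicate 2 alone. In cpna-2, which encodes a copine domain protein, the transcripts ran between 2.49 and -0.30, and 4 of its 5 had a mean below 10. The bHLH gene hlh-11 had 8707 on replicate 1 for F58A4.7b, against 2231 on replicate 2, with 2755 and 2481 on replicates 3 and 4. Its transcripts F58A4.7a, F58A4.7c and F58A4.7d went the other way, at -0.50, -0.51 and -0.50. The hlh-11 values therefore do not describe the gene as a whole.

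Transcripts of the same gene also lay apart in genes of muscle, epithelia and axons. The cofilin gene unc-60 had differences of 0.01 for C38C3.5a, 0.76 for C38C3.5b and 1.62 for C38C3.5c, and the signals of C38C3.5a were 22955 on replicate 1 and 22798 on replicate 2, against 6960 and 2264 for C38C3.5c. In vab-10, 5 transcripts lay between 1.52 and 1.56, while ZK1151.1b, ZK1151.1c and ZK1151.1g lay at 0.50, 0.47 and 0.50. For ajm-1 the values were 1.95 and 1.99 in C25A11.4a and C25A11.4d, and 1.18, 0.88 and 0.87 in the other transcripts. In unc-44, B0350.2f differed by 1.77 and the 6 others by between 0.36 and 0.82. Of tropomyosin, lev-11, 4 transcripts lay between 2.50 and 2.63, Y105E8B.1e at 1.92 and Y105E8B.1c at 1.39.

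**Figure D5:**
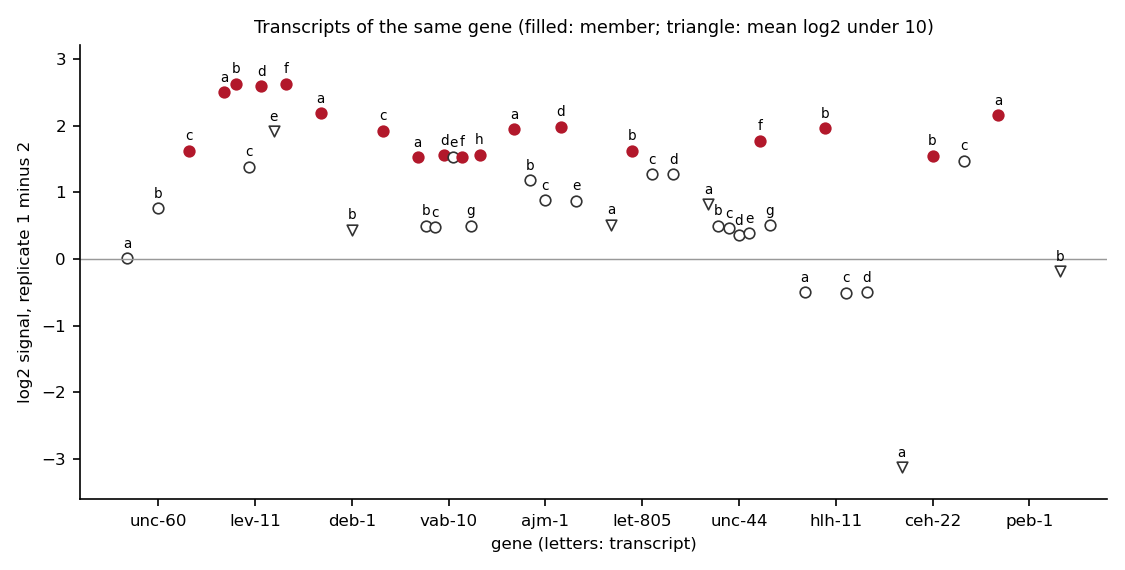
Log2 signal of replicate 1 minus replicate 2 for the transcripts of 10 genes, each letter naming a transcript. Filled points are chosen transcripts, open circles are others with a mean log2 of 10 or more and triangles have a lower mean. Within hlh-11 the chosen transcript b lies at 1.96 and the 3 others near -0.50, and ceh-22 spans 1.55 to -3.12.

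The chromosome of a gene played no part in the choice. Chromosome X held 38 of the 141 genes, or 27%, against 12.5% of the 7958 named genes. Put the other way, 3.82% of the genes of chromosome X had a chosen transcript, 2.04% of those of V, 1.62% of III, 1.54% of IV, 1.37% of II and 0.972% of I. The median difference over all genes of chromosome X was 0.01 and that of the autosomes lay between -0.10 and -0.08, while 7.04% of X genes differed by more than 1. The muscle groups account for 5 of the 38 genes on X. Adjacent on their chromosome were 6 pairs of chosen genes. They were emb-9 with chtb-1, F42C5.9 with ifo-1, F14B8.5 with F14B8.6, mlc-2 with mlc-1, and lpr-5 with both lpr-4 and lpr-6. The 91 other direct neighbours with a mean of 10 or more had a median of -0.05, and 3 of them, or 3.30%, differed by more than 1, close to the 3.54% of all named genes.

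The minimum on the mean left out many genes, and the lists differed among them. Among 11423 named genes with a mean log2 below 10, 1518 (13.3%) had the order of replicates used in the choice and 458 (4.01%) differed by more than 1. Of 8 intermediate filament genes below that mean, 5 had the order, with a median difference of 1.01 over the 8. Of 7 basement membrane genes 5 had it, with a median of 1.26, and of 14 genes of muscle excitation and calcium 7 had it, with a median of 0.57. Of 12 furrow and body-shape collagens 2 had it, with a median of -0.005 and none above 1, and of 4 thin filament genes 1 had it. Of 10 synaptic and pan-neuronal genes 4 had it, with a median of 0.39 and 2 above 1. Of 38 genes listed for intraflagellar transport 22 had it, with a median of 0.60 and 8 above 1. Single genes reached the size of the chosen ones. The LIM domain gene alp-1 differed by 2.93, with 2862 on replicate 1, 376 on replicate 2, 1349 on replicate 3 and 562 on replicate 4. The obscurin relative unc-89 differed by 1.70, the calsequestrin csq-1 by 1.69, the intermediate filament ifp-1 by 2.03 and the matrix genes qua-1, cut-6 and lpr-1 by 2.31, 2.02 and 2.01. All of these had the same order of replicates, and their mean below 10 kept them out of the choice.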

How the data were processed

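The deposited values were linear microarray intensity per transcript, quantile normalized and averaged over probes by the authors, per the headers and names of the deposited tables. For the scanner, background correction, genome build and number of probes, the sources used here give nothing. Intensity was taken as log2, with a floor of 1 that no value reached. Of 23181 transcripts, 17152 matched a RefSeq gene table (WBcel235) as written, 5352 without the isoform letter and 677 not at all, and the table served for names, chromosomes and neighbours only. The 4 samples form 1 group, so no comparison was tested and no model was fitted. The members, the 62 gene lists and the rule for named genes were chosen with earlier results of these data known. That rule took the largest and smallest differences, the first 3 of each list, the lowest genes of lists with 3 or more members, extreme positions of replicate 3 and the widest isoform spans. Other genes named, and the functional groups, were chosen after their values were seen. Python 3.11.15, numpy 2.4.6, pandas 2.3.3 and matplotlib 3.10.9 were used. Each replicate was left out in turn, and 11 other settings were tried.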

Additional observations from a re-analysis of the deposited data

Results flagged for a closer look

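In 1 of the 200 transcripts, the highest or lowest replicate lay farther from its nearest neighbour than the 95% limit for 4 samples allows. For F58A4.7b of hlh-11, replicate 1 had a signal of 8707 against 2755 on replicate 3, and that gap was 0.845 of the whole log2 range. The median of this ratio over the 200 was 0.545. Chance marks about 1 in 20 groups, and here 0.5% were marked, but the transcripts were chosen on these values and are not independent. The other 3 transcripts of hlh-11 were lowest on replicate 1, and no explanation was tested.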

How the results depend on the processing

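The choice depended mainly on its own limits. The median log2 difference, 1.90, became 2.15 with a mean log2 of 9 or more, 1.52 with 11 or more, 2.26 with no minimum, 2.32 with 100 kept, 1.52 with 400 kept and 1.76 with 1 transcript per gene. Of the 200 transcripts, 130 remained with a mean of 9 or more, 97 with 11 or more, 102 with no minimum and 100 with 100 kept. The genes numbered 75 with 100 kept and 282 with 400 kept, and those on chromosome X 69 with 400 kept. Leaving out each replicate in turn gave medians between 0.76 and 1.97, of which 0.76 came without replicate 1, where replicate 3 minus replicate 2 was ranked, and shared between 144 and 198 of the 200. Another floor (64) and the value table of the whole series shared all 200, no required order 197, a common median 194 and a second quantile normalization 193. The 3 muscle structure lists had between 14 and 24 genes with a chosen transcript over the 15 settings, against 19. Of 150 counts in 10 lists, 24 moved by more than 1.5 times, 3 of them on leaving out replicate 2: epithelial junctions to 1, against 5, and neuronal fate factors and axon guidance to 1 each, against 3. Both neuronal lists had 0 with a mean of 9 or more, no minimum or 100 kept. The share of promoters with a motif was not run, since no promoter sequences were used here. No paired analysis was possible because the samples form 1 group. Quantile normalization hides a shift of most transcripts, and with 4 arrays a difference between 2 of them has no error.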
